A study of Oryza sativa with 4 samples.

Results

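The Aux/IAA genes encode short-lived nuclear repressors of auxin signalling, and rice carries 31 of them, IAA1 to IAA31. All 31 were taken by a list of their locus identifiers, with no cut on a measured value, and found among the 91960 features of the count table. RNA sequencing was done on rice (Oryza sativa, japonica) seedlings of 7 days kept in light for 14 h and in dark for 10 h of each day. The wild type group was 2 libraries of the line SN9816, and the mutant group was 2 libraries of bta1-1. The genotype label of both bta1-1 libraries reads MuZ1 mutant, and the labels give no other allele, no zygosity and no background of that line. Effects of the mutation and of any further difference between the lines cannot be told apart. The series title asks how BTA1 acts on tiller angle and shoot gravitropism through auxin, and the comparison for it is bta1-1 against wild type.

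An Aux/IAA protein binds auxin response factors (ARFs) at auxin-regulated promoters and recruits TOPLESS-type corepressors, so that transcription stays off. Auxin joins the Aux/IAA protein to a TIR1/AFB receptor of a ubiquitin ligase, the repressor is degraded, and the response factors are released. Many Aux/IAA genes are themselves induced by auxin within minutes, which makes the family both a brake on the response and a readout of it. The locus BTA1 corresponds to LAZY1, which promotes shoot gravitropism in rice, and the maize LAZY1 protein is known to bind an Aux/IAA protein.

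The libraries held 15093108 to 20334851 counted reads. For LAZY1 (OS11G0490600) the wild type reads were 767 and 461 and the bta1-1 reads 70 and 89. This gene was thus lower in both libraries labelled bta1-1 and still read. Leaf markers were abundant, with 6 of 6 tested. Their summed level was 22175 and 32044 FPKM (fragments per kilobase of gene and scaled to library size, as deposited) in wild type libraries 1 and 2. It was 39204 and 21327 FPKM in bta1-1 libraries 1 and 2, and each of the 6 was lower in bta1-1 library 2 than in library 1. By edgeR, 0 of the 6 had an adjusted p under 0.05. Log2 fold changes (bta1-1 over wild type) were -1.04 to -0.24 for RBCS2 to RBCS5 (Rubisco small subunits). For the antenna genes CAB1R and CAB2R they were 0.39 and 0.56. Of 6 root markers 5 were tested, summing to 462 to 779 FPKM, and the silicon exporter LSI2 had at most 1 read in a library. Of the meristem markers MOC1, OSH1 and OSH15, none exceeded 7 reads in a library. Of 4 markers of dividing cells all 4 were higher in bta1-1 (edgeR, adjusted p under 0.05), beside 2.77% of all genes tested. These markers were listed with earlier results of these data known. Their summed FPKM was 20.4 and 9.09 in the wild type libraries 1 and 2, and 44.3 and 108 in the bta1-1 libraries 1 and 2. These were bulk samples, in which more cells of a type and more RNA per cell cannot be told apart.

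The family was mostly expressed, and few members were called different between the lines. Of the 31 genes, 26 had enough reads to be tested, and 2 were called higher in bta1-1, IAA12 (OS03G0633800) by 2.42-fold and IAA27 (OS11G0221000) by 2.74-fold. No member was called lower, by edgeR, DESeq2 or limma. A gene was called at an adjusted p under 0.05 (quasi-likelihood test of edgeR, Benjamini-Hochberg adjusted over 24396 genes, used for every adjusted p below unless another tool is named). Among all genes tested, 2.77% were called higher and 2.64% lower, beside 7.69% and 0% of the members. At an unadjusted p under 0.05, 8 of 26 members were higher against 9.68% of all genes, and 1 was lower against 8.16%.

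Levels within the family spanned a wide range, down to no read. IAA17 stood highest, at 588 and 618 FPKM in wild type libraries 1 and 2 and at 559 and 653 FPKM in bta1-1 libraries 1 and 2. IAA21 followed at 424 and 530 FPKM in wild type and 487 and 536 FPKM in bta1-1. In both genes the groups overlapped, and the log2 fold changes were -0.04 (SE 0.31) for IAA17 and 0.05 (SE 0.30) for IAA21. IAA3, whose stabilized form is known to disturb auxin responses and root gravitropism, had 237 and 224 FPKM in wild type and 194 and 262 FPKM in bta1-1. IAA13, known from a stabilizing mutant that makes fewer lateral roots, had 141 and 184 FPKM in wild type and 140 and 215 FPKM in bta1-1. IAA15 had 109 and 134 FPKM in wild type and 111 and 105 FPKM in bta1-1. For these 3 genes too the groups overlapped, with log2 fold changes of -0.06 (SE 0.27), 0.07 (SE 0.29) and -0.21 (SE 0.26).

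These 5 genes made up 66.8% to 72.2% of the family's summed level in each library. The sum over all 31 genes was 2122 and 2342 FPKM in wild type libraries 1 and 2 and 2234 and 2643 FPKM in bta1-1 libraries 1 and 2. The groups overlapped, with means of 2232 ± 155 FPKM in wild type and 2438 ± 289 FPKM in bta1-1 (SD, n = 2 each), a ratio of 1.09. Of the 30 neighbouring pairs in the order of mean level, 25 had ranges over the 4 libraries that overlapped or met. The 5 gaps lay below IAA17, IAA21, IAA13, IAA8 and IAA11, so most ranks in between are not separated by these ranges. The ranges pool the libraries, and IAA3 lay above IAA13 within each of the 4 although their ranges overlapped.

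**Figure D1:**
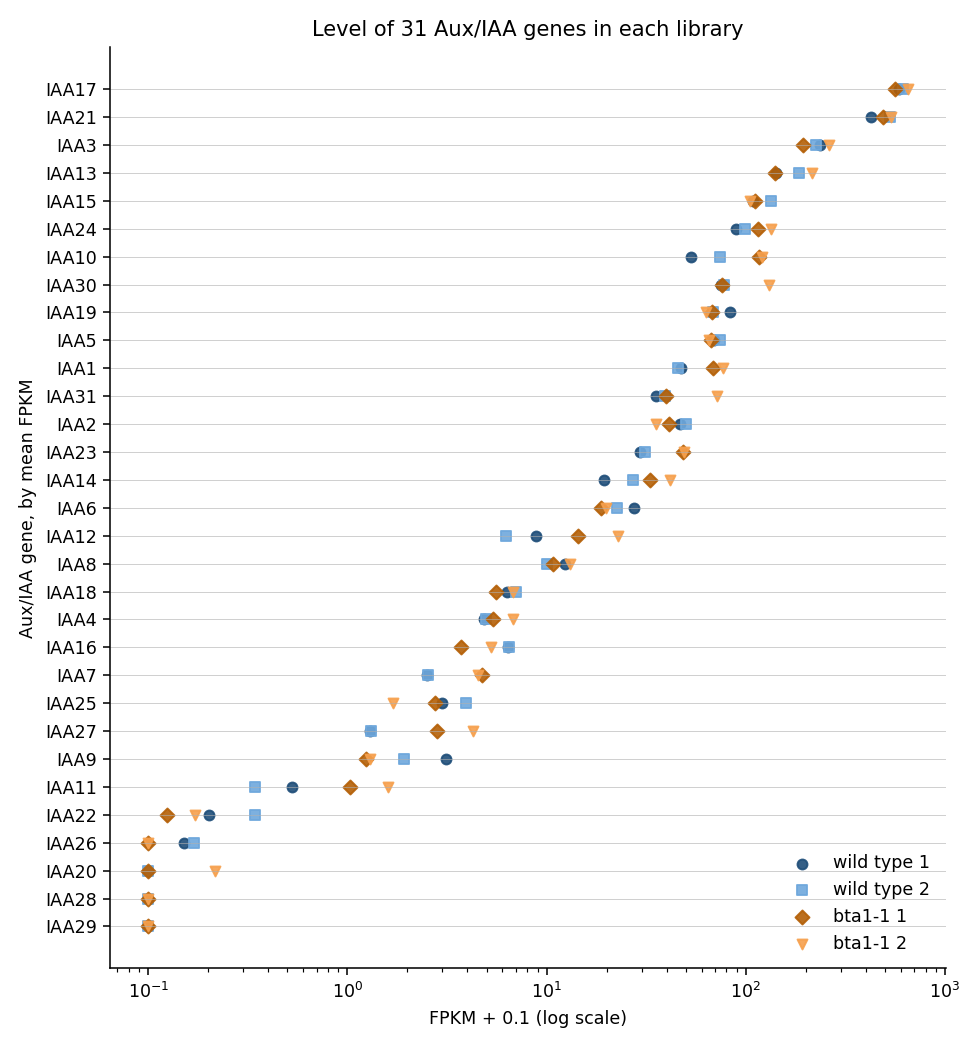
FPKM plus 0.1 on a log axis (horizontal) of the 31 Aux/IAA genes (vertical, ordered by mean FPKM), with 1 point per library. IAA17 and IAA21 lie highest, IAA28 and IAA29 have no read, and the mutant points of IAA11, IAA12 and IAA27 lie to the right of the wild type points.

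By level, 6 members averaged at least 100 FPKM over the 4 libraries, and their log2 fold changes ran from -0.21 to 0.36, with none called. The 12 members between 10 and 100 FPKM ran from -0.40 to 1.27, with IAA12 called. The 7 members between 1 and 10 FPKM ran from -1.09 to 1.45, with IAA27 called. Of 4 members with reads but under 1 FPKM, only IAA11 was tested. The called members were thus not among the abundant ones: IAA12 ranked 17 and IAA27 ranked 24 by level. A difference between the level classes was not tested.

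Over the 26 tested members the median log2 fold change was 0.07, beside -0.01 over all genes tested. The log2 fold change was positive for 15 members, or 57.7%, beside 48.9% of all genes. In CPM (read counts scaled to library size with TMM factors), 11 members had both bta1-1 libraries above both wild type libraries and 6 had both below. The same held for 23.7% and 23.2% of all genes, against 42.3% and 23.1% of the members.

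**Figure D2:**
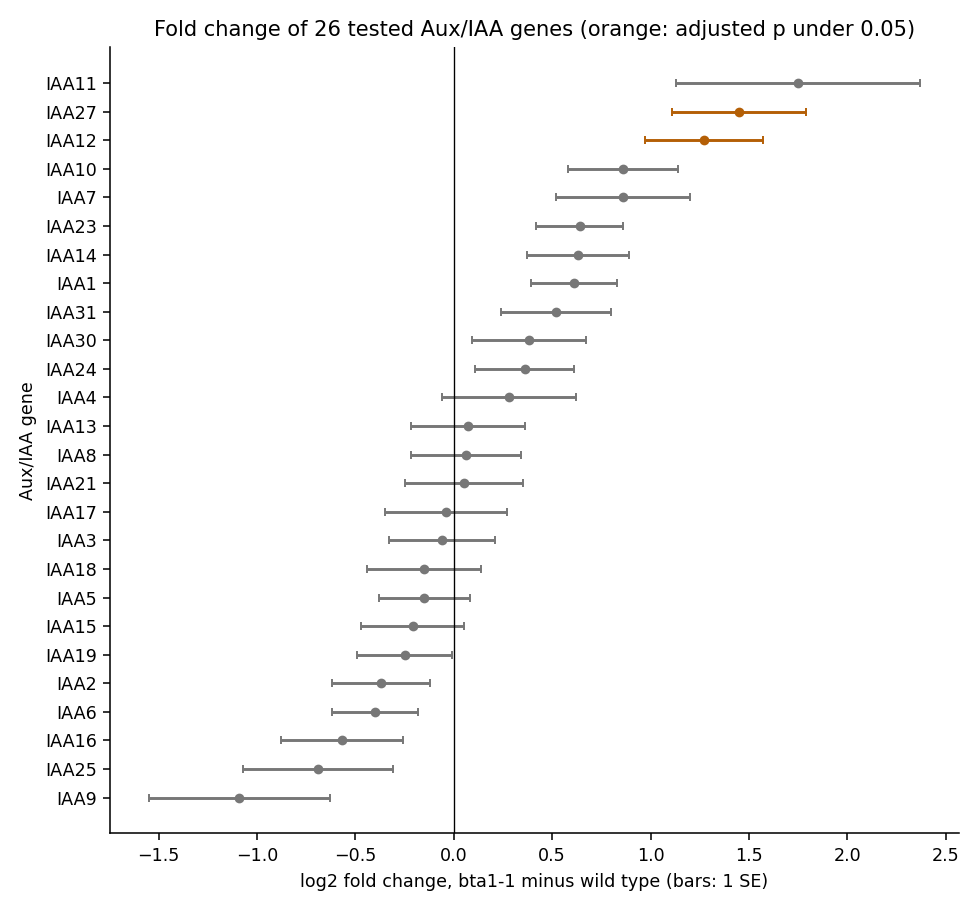
Log2 fold change of bta1-1 minus wild type (horizontal, bars show 1 SE from edgeR) for the 26 tested Aux/IAA genes (vertical, ordered by fold change). IAA12 at 1.27 and IAA27 at 1.45 are the 2 genes called, and IAA11 at 1.75 has a larger value with a wider error.

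IAA12, known to act with the response factor ARF17 in the bending of the leaf lamina joint, had 8.72 and 6.12 FPKM in wild type libraries 1 and 2 and 14.3 and 22.8 FPKM in bta1-1 libraries 1 and 2. Both mutant libraries stood above both wild type libraries, and within each group the libraries differed as well, bta1-1 library 2 being 0.52 (log2 CPM) above library 1. The log2 fold change was 1.27 (SE 0.30, adjusted p = 0.045). The call was lost on leaving out wild type library 1 (adjusted p = 0.0506), wild type library 2 (0.165) or bta1-1 library 2 (0.148), while the log2 fold change stayed between 1.02 and 1.51.

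IAA11 (OS03G0633500), known from stabilizing mutants without lateral roots, is the neighbour of IAA12 on chromosome 3, with no other counted locus identifier between them. Its reads were 7 and 3 in the wild type libraries, and 13 and 21 in those of bta1-1, or 0.425 and 0.245 FPKM against 0.926 and 1.49 FPKM. The order of the libraries was the same as for IAA12, from wild type library 2 as the lowest to bta1-1 library 2 as the highest. That order was found in 2 of 26 members (7.69%), these neighbours, which is near the 8.71% of all genes tested. The log2 fold change of IAA11 was 1.75 (SE 0.62, adjusted p = 0.168), and it was not called at this depth.

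The level of IAA12 was 20.5 and 24.9 times that of IAA11 by FPKM in wild type libraries 1 and 2 and 15.5 and 15.3 times in bta1-1 libraries 1 and 2. On the log2(FPKM + 1) scale the difference between them was 2.77 and 2.51 in wild type and 2.99 and 3.25 in bta1-1. The mutant values thus lay above the wild type values on that scale by 0.48 on average and below them by FPKM, since IAA11 is close to the pseudocount of 1. With a pseudocount of 0.1 the difference was -0.29. The exact two-sided permutation test over the 4 libraries gave p = 0.333 on log2(FPKM + 1), the smallest value that 2 against 2 can give.

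IAA27 had 1.20 and 1.22 FPKM in wild type libraries 1 and 2 and 2.71 and 4.17 FPKM in bta1-1 libraries 1 and 2. The groups did not overlap, the wild type libraries lay close together, and bta1-1 library 2 was 0.48 (log2 CPM) above library 1. The log2 fold change was 1.45 (SE 0.34, adjusted p = 0.0436). Here too the call was lost on leaving out wild type library 1 (adjusted p = 0.145), wild type library 2 (0.108) or bta1-1 library 2 (0.2), with the log2 fold change between 1.22 and 1.67. In a fit that took the replicate number as a block, IAA12 had adjusted p = 0.108 and IAA27 had 0.12.

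IAA27 is numbered beside IAA28 (OS11G0221200) and IAA29 (OS11G0221300) on chromosome 11, and these had 0 reads in each of the 4 libraries. A count of 0 allows 3 reads, which is 0.148 to 0.199 CPM across the libraries and covers counting error only. Within this cluster, reads were thus detected for IAA27 alone. The gene length behind the FPKM of IAA27 was 2984 bases, among the longest of the family, whose 29 members with a read ran from 760 bases (IAA13) to 3100 bases (IAA25).

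**Figure D3:**
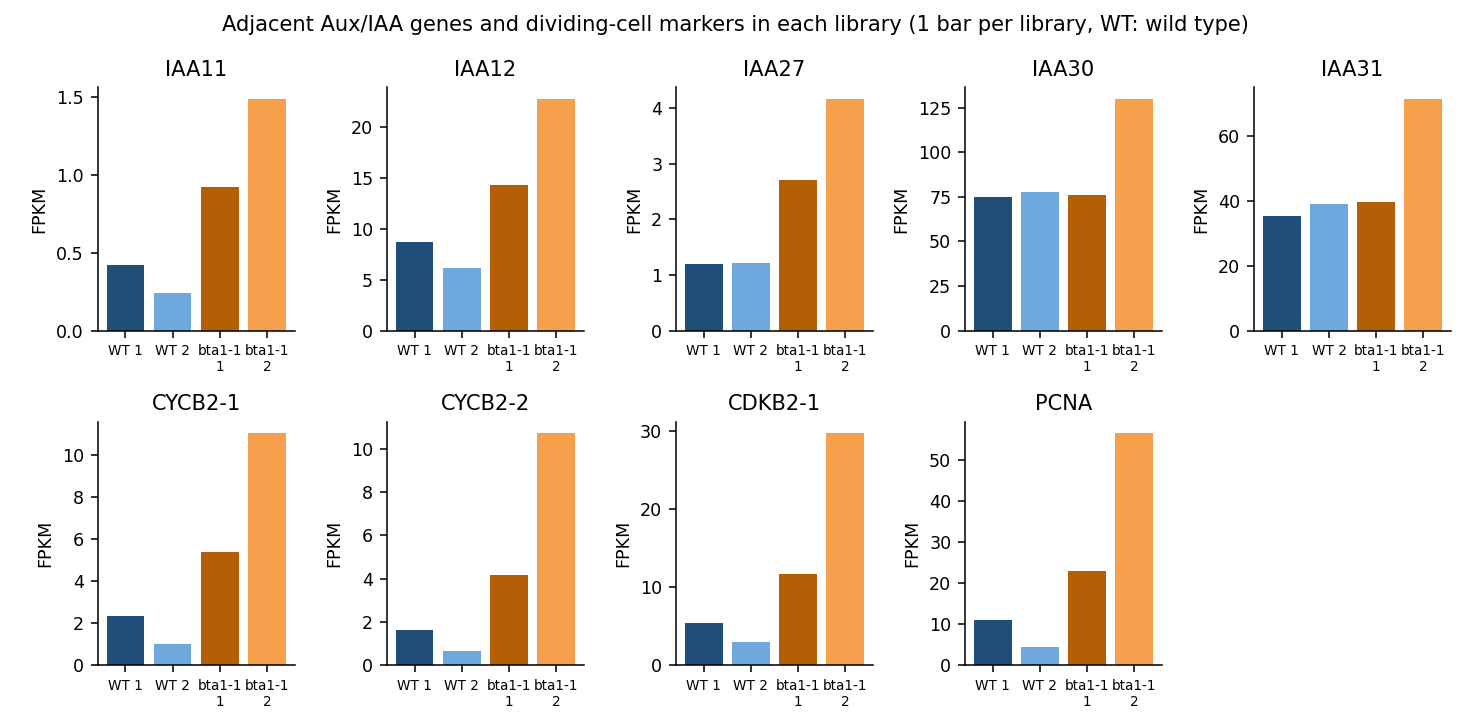
FPKM (vertical, from 0, with a scale of its own in each panel) in each of the 4 libraries, with 1 bar per library, for the neighbours IAA11 and IAA12, for IAA27, for the neighbours IAA30 and IAA31, and for 4 dividing-cell markers. IAA11 and IAA12 follow the same order of libraries as the markers, and IAA30 and IAA31 stand out in bta1-1 library 2 alone.

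The 4 dividing-cell markers, also higher in bta1-1, had the library order of IAA11 and IAA12, found in 8.71% of all genes tested. Among the 5785 tested genes with both bta1-1 libraries above both wild type libraries, 2125 had that order. IAA27 did not have that order, with 3.51 and 3.84 CPM in wild type libraries 1 and 2. CYCB2-1, a B-type cyclin of mitosis, had 2.32 and 1.02 FPKM in wild type libraries 1 and 2 and 5.38 and 11.0 FPKM in bta1-1 libraries 1 and 2. PCNA, the sliding clamp of DNA replication, had 11.0 and 4.36 FPKM in wild type and 23.0 and 56.6 FPKM in bta1-1. The log2 fold changes of the 4 markers were 2.22 to 2.61, each larger than those of IAA11, IAA12 and IAA27, and each marker was lowest in wild type library 2 and highest in bta1-1 library 2. Of the 4 markers, 1 was called after leaving out wild type library 2 and 3 after leaving out bta1-1 library 2, at log2 fold changes of at least 1.54. Their part in the differences of IAA11, IAA12 and IAA27 was not tested.

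IAA30 (OS12G0601300) and IAA31 (OS12G0601400) are neighbours on chromosome 12, again with no counted locus identifier between them. IAA30 had 75.2 and 77.5 FPKM in wild type libraries 1 and 2 and 76.2 and 130 FPKM in bta1-1 libraries 1 and 2. IAA31 had 35.3 and 39.0 FPKM in wild type and 39.7 and 71.4 FPKM in bta1-1. In both genes bta1-1 library 1 lay near the wild type libraries and bta1-1 library 2 far above them, by 0.63 and 0.70 (log2 CPM) over library 1.

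Their log2 fold changes were 0.38 (SE 0.29, adjusted p = 0.595) and 0.52 (SE 0.28, adjusted p = 0.406), and neither was called. Without bta1-1 library 2 they were 0.06 and 0.16. The level of IAA30 was 2.13 and 1.99 times that of IAA31 in wild type and 1.92 and 1.82 times in bta1-1, so their proportion stayed between 1.82 and 2.13 in the 4 libraries. On log2(FPKM + 1) that difference was -0.13 from wild type to bta1-1 (exact two-sided permutation test, p = 0.333, the smallest it can give). Bta1-1 library 2 was also the library with the highest CPM for 12 of 26 members, against 33% of all genes tested.

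The genes around the clusters were mostly not called. Of the 10 tested genes on each side of IAA11 and IAA12, 1 of 20 was called higher and 0 lower (2 and 0 at an unadjusted p under 0.05, 1 and 0 by DESeq2), with a median log2 fold change of 0.02. Around IAA27 to IAA29, 0 of 20 were called in either direction by edgeR or DESeq2 (1 higher and 2 lower at an unadjusted p under 0.05), with a median of -0.24 and a range from -1.01 to 0.95, all below the 1.45 of IAA27. Around IAA30 and IAA31, 3 of 20 were called higher and 0 lower (9 and 0 unadjusted, 5 and 0 by DESeq2), with a median of 0.59, so this stretch of chromosome 12 held more higher values than the others, a difference that was not tested. The neighbours were taken in the order of locus numbers. Among all 24396 genes tested, edgeR called 2.77% higher and 2.64% lower, and DESeq2 called 1027 genes higher and 894 lower. At an unadjusted p under 0.05 in edgeR, 9.68% were higher and 8.16% lower.

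**Figure D4:**
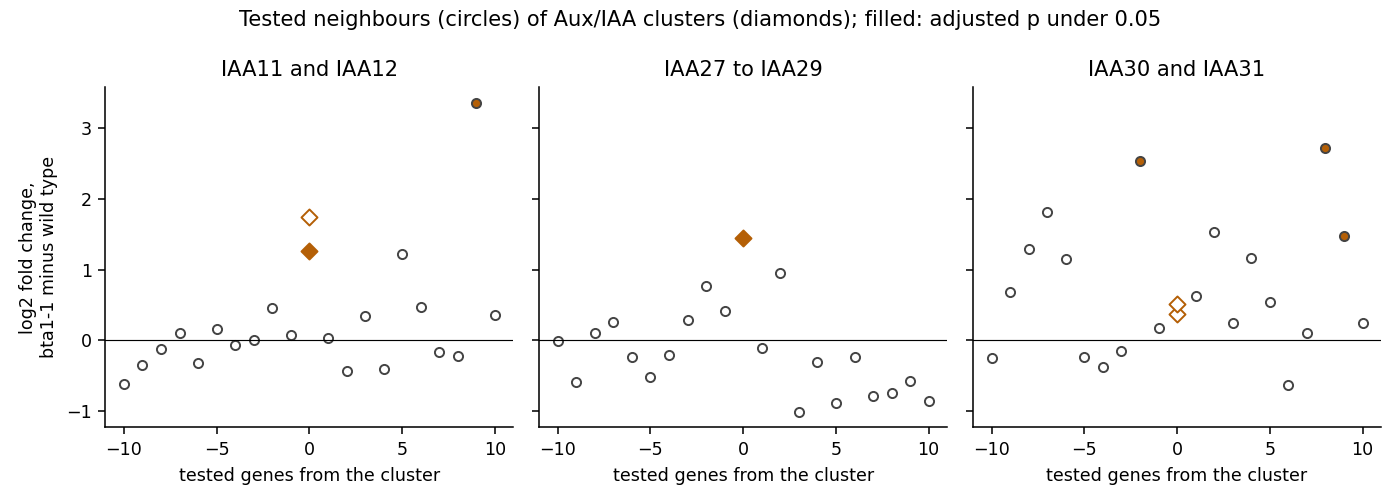
Log2 fold change of bta1-1 minus wild type (vertical) for the tested genes up to 10 steps on each side of 3 Aux/IAA clusters (horizontal, steps in the order of locus numbers), with Aux/IAA genes as diamonds and called genes filled. IAA27 lies above all 20 of its neighbours, and IAA12 above 19 of 20.

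Among the uncalled members with higher values, IAA10 (OS02G0817600), known as the target of a protein of rice dwarf virus, had 52.9 and 73.9 FPKM in wild type libraries 1 and 2 and 117 and 121 FPKM in bta1-1 libraries 1 and 2. The mutant libraries agreed closely and lay above both wild type libraries, which differed by 0.59 (log2 CPM). Its log2 fold change was 0.86 (SE 0.28, adjusted p = 0.127), and with no filter on low counts its adjusted p was 0.0367. IAA23 (OS06G0597000), known from a stabilizing mutant that loses the quiescent centre of the root, had 29.3 and 31.2 FPKM in wild type and 48.4 and 48.8 FPKM in bta1-1. The replicates lay close together in both groups and the groups did not overlap, with a log2 fold change that reached 0.64 (SE 0.22, adjusted p = 0.16).

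IAA1, IAA7 and IAA14 also had groups that did not overlap. IAA1 had 47.0 and 45.6 FPKM in wild type and 68.7 and 76.5 FPKM in bta1-1 (log2 fold change 0.61, adjusted p = 0.182). IAA7 had 2.41 and 2.45 FPKM against 4.63 and 4.42 FPKM (0.86, adjusted p = 0.229). IAA14 had 19.3 and 27.2 FPKM against 32.8 and 41.6 FPKM (0.63, adjusted p = 0.255). IAA4, whose overexpression is known to give short plants with a wide tiller angle, had 4.75 and 4.86 FPKM against 5.31 and 6.70 FPKM, a log2 fold change of 0.28 (SE 0.34) that was within its error.

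Members with lower values in bta1-1 were fewer and none was called. IAA9 (OS02G0805100) had 3.02 and 1.83 FPKM in wild type libraries 1 and 2 and 1.14 and 1.20 FPKM in bta1-1 libraries 1 and 2. The groups did not overlap, and the log2 fold change was -1.09 (SE 0.46, adjusted p = 0.257). The locus numbered next to it is PCNA (OS02G0805200), which rose by 2.32 on the log2 scale (adjusted p = 0.0282), so these neighbours had opposite signs. IAA16 had 6.29 and 6.39 FPKM in wild type and 3.63 and 5.16 FPKM in bta1-1 (log2 fold change -0.57, adjusted p = 0.394). IAA25 had 2.90 and 3.83 FPKM against 2.66 and 1.60 FPKM (-0.69, adjusted p = 0.414). IAA6, known to act in tiller outgrowth and drought tolerance, had 27.3 and 22.4 FPKM against 18.7 and 19.8 FPKM (-0.40, adjusted p = 0.417).

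The remaining tested members, IAA2, IAA5, IAA8, IAA18, IAA19 and IAA24, had log2 fold changes from -0.37 (IAA2) to 0.36 (IAA24). IAA20, IAA22 and IAA26 were too low to be tested. IAA20 had 2 reads in bta1-1 library 2 and none in the other libraries. The reads of IAA22 were 5 and 9 in the wild type libraries, and 1 and 3 in those of bta1-1. IAA26 had 1 read in each wild type library and none in bta1-1. With IAA28 and IAA29 these are the 5 members for which the data give no comparison.

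Chromosomes 1 and 5 of rice are known to share an old duplicated segment, and they hold 6 and 5 members. With IAA4 set aside, the members of the 2 chromosomes can be paired by their order along the chromosome, a pairing made with the values known and without sequence. Within the 5 such pairs the mean levels differed by 1.93 to 10.9 times, and other pairs of members were not compared. IAA17 averaged 605 FPKM against 229 FPKM for IAA3, IAA5 68.7 FPKM against 6.32 FPKM for IAA18, and IAA2 43.2 FPKM against 5.37 FPKM for IAA16. IAA15 averaged 115 FPKM against 59.5 FPKM for IAA1, and IAA19 averaged 70.4 FPKM against 22.1 FPKM for IAA6. The log2 fold changes in bta1-1 were -0.06 and -0.04 for IAA3 and IAA17, and -0.15 and -0.15 for IAA5 and IAA18. They were -0.37 and -0.57 for IAA2 and IAA16, and -0.40 and -0.25 for IAA6 and IAA19. For IAA1 and IAA15 they were 0.61 and -0.21, and none of the genes in these pairs was called.

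Of 37 listed partners and targets of the Aux/IAA proteins 33 were tested, 1 was called higher and 0 lower, near the 2.77% and 2.64% of all genes. Of 5 tested TIR1/AFB receptors 0 were called, and the one with the smallest p was TIR1 at a log2 difference of 0.27 (adjusted p = 0.649). Of 3 TOPLESS-type corepressors 0 were called, with log2 fold changes from -0.35 (TPL1, the smallest p) to 0.05. DESeq2 likewise called 0 of these 8 genes, and 0 passed an unadjusted p under 0.05 in edgeR. Of 23 tested response factors 1 was called, ARF11 (OS04G0664400), at 0.382 and 0.185 FPKM in wild type libraries 1 and 2 and 1.15 and 1.83 FPKM in bta1-1 libraries 1 and 2, in the order of libraries that IAA11 and IAA12 had. Its adjusted p was 0.0295, and the call was lost on leaving out wild type library 2 (0.096) or bta1-1 library 2 (0.0615). ARF17, the known partner of IAA12, had 23.7 and 15.5 FPKM in wild type and 15.7 and 30.4 FPKM in bta1-1, with overlapping groups. At an unadjusted p under 0.05, 3 of 23 response factors were higher and 1 was lower, near the 9.68% and 8.16% of all genes, and DESeq2 called 1 higher and 0 lower. Of 4 auxin-induced genes outside the family 2 were tested, with opposite signs, and neither was called. GH3-8, an enzyme that conjugates auxin, had 14 and 10 wild type reads against 2 and 0 bta1-1 reads (adjusted p = 0.0854). GH3-1 had a log2 fold change of 0.64 (adjusted p = 0.619).

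How far the 2 calls depend on the test is shown by their adjusted p under each setting. Under edgeR with other scaling factors or with rice locus identifiers alone, and under DESeq2, both were called, with adjusted p from 0.00984 to 0.0458. On the deposited FPKM neither was called by limma, at adjusted p from 0.0745 to 0.328. With 2 libraries a group, an uncalled member is not shown to be unchanged.

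**Figure D5:**
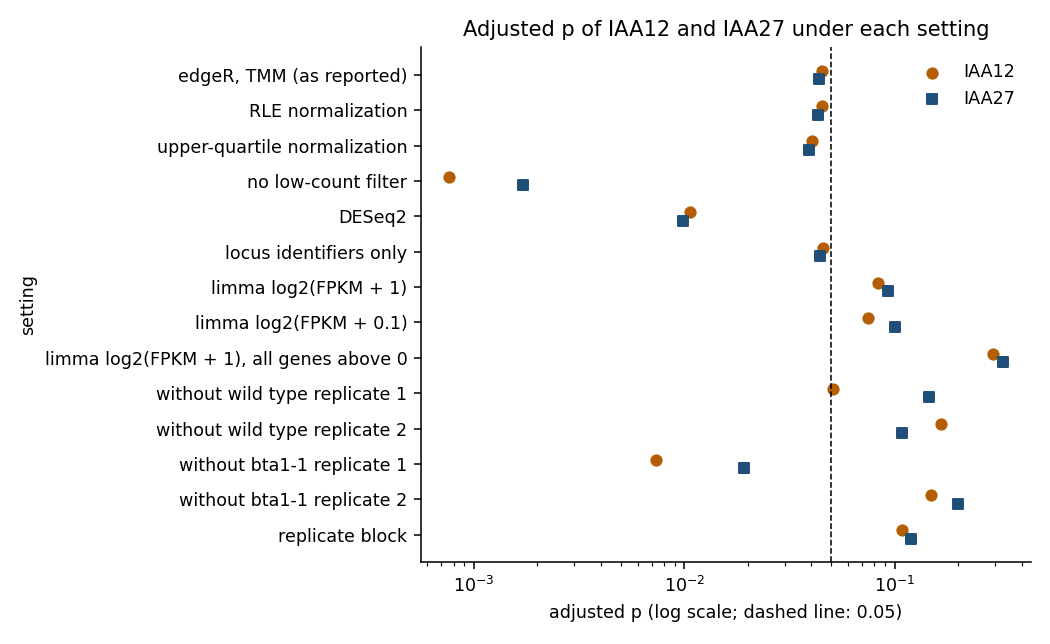
Adjusted p (horizontal, log axis, dashed line at 0.05) of IAA12 and IAA27 under each setting (vertical). Both genes lie right of the line on FPKM, with the replicate block and when either wild type library or bta1-1 library 2 was left out, and left of it under the other settings.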

How the data were processed

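The authors deposited raw read counts, whole numbers per gene, and FPKM for the same features. Reads divided by FPKM gave lengths whole within 0.01 base in 100% of 123342 values. The build IRGSP-1.0, HTSeq 0.6.1, TopHat2 2.0.12 and Bowtie2 2.2.3 are named, per the submitters' processing notes, without roles. The counting's strand setting was not given in the sources used here. Reads of overlapping genes and of similar family members may be misassigned.

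From the counts, edgeR 4.0.16 (R 4.3.3) was run with TMM scaling, filterByExpr (minimum count 10, minimum total 15), a robust quasi-likelihood fit on group, two-sided, adjusted over all genes kept. An SE is the log2 fold change over the square root of F. The script was tested on simulated data. Alternatives used limma 3.58.1, DESeq2 1.42.0, other scaling or filters, each library left out, and the replicate number as a block. P-values measure the spread between these samples, which the design text calls biological replicates. In a chi-square test the replicates of each group differed beyond sampling noise (33.1 and 45.8 per degree of freedom).

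Members, lists and adjacent clusters were chosen with earlier results of these data known. Values are given in full for called and adjacent members, the 5 most abundant, and the 3 higher and 3 lower uncalled members with the smallest p; other named members were chosen after their values were seen. Names match a RefSeq table (ASM3414082v1) by symbol and chromosome order for 28 of 31; IAA22, IAA27 and IAA28 rest on the locus identifier. That table gives another IAA number as well for 3 members (IAA4, IAA5 and IAA13). A planned grouping by protein sequence was not run, since no sequence was used here.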

Additional observations from a re-analysis of the deposited data

How the results depend on the processing

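For 15 Aux/IAA genes 195 values were recomputed, of which 171 kept their direction and their side of the threshold. Of the rest, 14 lost a call, all for the called genes IAA12 and IAA27, 9 changed sign and 1 gained a call. Most of the 15 genes were uncalled, so the 171 says little about the 2 calls. The number of members called higher was 2, and 0 in each of 3 limma fits to FPKM (pseudocount 1, pseudocount 0.1, and pseudocount 1 with all genes above 0). Without 1 library it ranged from 0 to 2. With equal replicate numbers as a block it was 0, with 359 higher and 415 lower over all genes and 0 pathway genes. Deviations of equal numbers correlated at -0.416, and pairing them crosswise, chosen after seeing the data, gave 4 members, 1972 higher, 1772 lower and 3 pathway genes. The labels do not say that the numbers pair the libraries.

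Over all genes 1582 were higher and 1322 lower with no filter (3 pathway genes), 1027 higher by DESeq2, and 2 higher and 9 lower by limma on all genes above 0. Without 1 library 401 to 1202 were higher. The pathway calls, 1 as reported, were 0 on the same 3 FPKM settings and 0 to 1 without 1 library. Counting 5 neighbours on each side gave 0 calls around IAA11 and IAA12 and 1 around IAA30 and IAA31. The log2 ratio of IAA12 over IAA11 turned from 0.48 to -0.29 with a pseudocount of 0.1. Uncalled log2 fold changes near 0 changed sign, IAA17 to 0.00 on the 3 FPKM settings. Without 1 library the ranges were -0.13 to 0.06 for IAA17, -0.16 to 0.34 for IAA13, -0.40 to 0.01 for IAA15, -0.15 to 0.28 for IAA21 and -0.18 to 0.07 for IAA3. Apart from the pseudocount, the cause was not tested. Depth limits IAA11 and the members under 1 FPKM.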
